A study of Mus musculus with 4 samples.

Results

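The genes described here are 7 genes of the aryl hydrocarbon receptor (AHR) pathway, Ahr, Ahrr, Arnt, Tiparp, Cyp1a1, Cyp1a2 and Cyp1b1, out of 17097 named genes measured in B16F10 cells. B16F10 is a mouse melanoma line that makes melanin and comes from the C57BL/6 strain. The 7 genes were named as the core of that pathway and taken where a probe set was annotated to exactly 1 gene; 16 probe sets met this, and the main value of a gene is that of its brightest probe set, judged on the average of all 4 arrays. The arrays were Affymetrix mouse genome strips read from total RNA, and each gives 1 log2 expression value per probe set. Control 1 and control 2 were B16F10 cells given MilliQ water (0 µM plumbagin), and plumbagin 1 and plumbagin 2 received plumbagin, a naphthoquinone made by plants, at 2 µM for 24 h. All 4 samples are the same line with no genetic change named in the labels. Whether samples of one group came from separate cultures is not stated in the labels, so the spread between these samples may be technical. The errors below (SE) come from a limma fit, in which each gene's own spread is drawn toward a value fitted over all genes. The genes were chosen with the difference between plumbagin and control already known, so that difference is given for them as a description, without a test.

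The aryl hydrocarbon receptor is a transcription factor of the bHLH-PAS family that is held in the cytoplasm by HSP90 and co-chaperones. When a ligand binds, it enters the nucleus, pairs with ARNT and binds response elements with the core GCGTG, from which it drives the cytochrome P450 genes Cyp1a1, Cyp1a2 and Cyp1b1. Ahrr and Tiparp are also targets, and both of their products act back on the receptor: AHRR competes for ARNT, and TIPARP (PARP7) attaches single ADP-ribose units to AHR and lowers its activity.

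A background level was set by 41 odorant receptor (Olfr) genes, assumed not to be transcribed in these cells. Their median level was 3.80 and their 95th percentile 5.05 on the log2 scale, a level that 8637 of the 17097 genes (50.5%) exceeded on average. All 10 melanocyte markers tried, such as Tyr and Pmel, were above it on these arrays, and their summed level (log2 of the summed linear values) was 14.6 to 14.7 in the controls and 14.5 to 14.7 with plumbagin. Of 28 markers of fibroblasts, macrophages, keratinocytes, endothelium, T cells and hepatocytes, 3 were above it, Kdr, Cd3e and Ttr. Plumbagin 1 stood apart in 16 hybridization spike-in probe sets, which averaged 9.24 (log2) there and 8.05 to 8.38 elsewhere, so the differences of the 7 genes are also given within each replicate number and without that array; the part of the spike-in difference in the results was not tested.

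Tiparp was the gene of the 7 with the largest difference, higher with plumbagin by 0.60 ± 0.22 (log2, SE, n = 2 per group), which is 1.51-fold. Ahr and Arnt were above the background level on every array and their groups overlapped, with differences of 0.23 ± 0.16 for Ahr and -0.08 ± 0.15 for Arnt. Cyp1a1, Cyp1a2, Cyp1b1 and Ahrr lay below the Olfr median on every array, with or without plumbagin, so no transcript of these 4 genes was detectable above background. Across all 17097 genes limma called 0 higher and 0 lower at an adjusted p of 0.05 (0% called in either direction; 169 had an unadjusted p under 0.05), and the median difference of all genes was -0.01. In 3 of the 7 genes (Tiparp, Ahrr and Cyp1a1) both plumbagin arrays lay above both controls, against 10.2% of all genes, and in 0 of the 7 did both lie below, against 15.2%. Since the genes were chosen on this contrast, nothing is read from those counts. The arrays measure bulk RNA, so a change in the share of cells that transcribe a gene and a change in RNA per cell cannot be told apart.

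**Figure D1:**
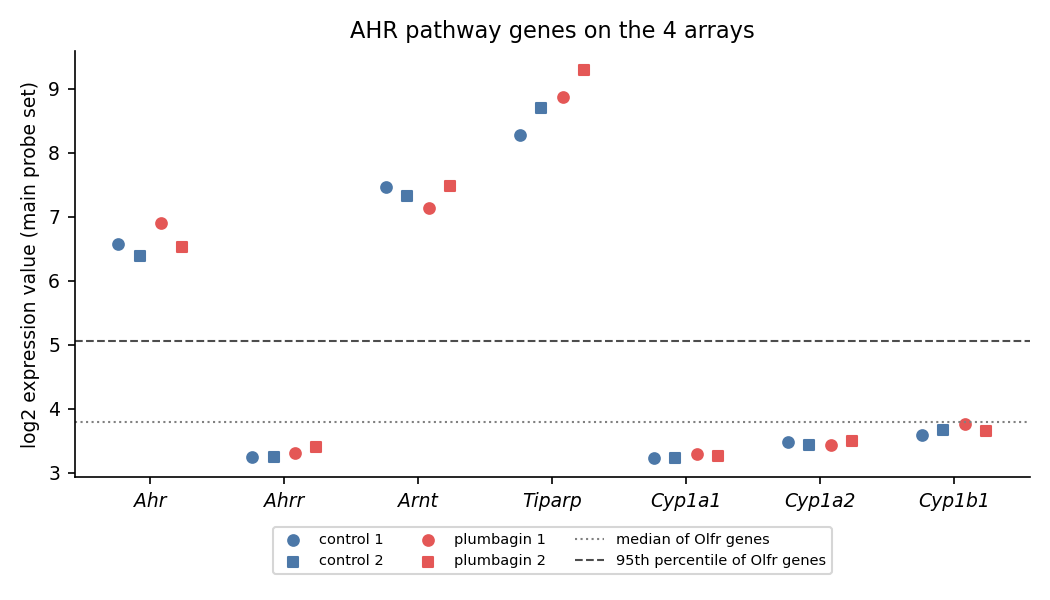
Log2 expression value (vertical axis) of the main probe set of each gene on the 4 arrays, with circles for replicate number 1 and squares for number 2, in blue for control and red for plumbagin. The dotted line is the median (3.80) and the dashed line the 95th percentile (5.05) of 41 Olfr genes: Ahr, Arnt and Tiparp lie above the dashed line on all arrays, and the other 4 genes lie below the dotted line.

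The stretch of DNA just upstream of 4 of the AHR target genes is shown because these targets differed in their readout: Tiparp was bright and higher with plumbagin, while Cyp1a1, Cyp1b1 and Ahrr stayed at background. Each line gives the 250 bases before a transcript start of the gene, the one used in the RefSeq promoter table of build GRCm38.p6, 5′ to 3′ in the direction of the gene. For Tiparp, Cyp1b1 and Ahrr that start is the edge of the RefSeq locus. For Cyp1a1 it lies 9685 bases inside the locus, and for Arnt, whose window was searched and not shown, 23 bases inside it. Capitals mark the AHR response element core GCGTG, or CACGC where it lies on the opposite strand. Of the 7 genes, 6 had a sequence in the RefSeq promoter table.
Tiparp, chr3:65528197-65528446, plus strand: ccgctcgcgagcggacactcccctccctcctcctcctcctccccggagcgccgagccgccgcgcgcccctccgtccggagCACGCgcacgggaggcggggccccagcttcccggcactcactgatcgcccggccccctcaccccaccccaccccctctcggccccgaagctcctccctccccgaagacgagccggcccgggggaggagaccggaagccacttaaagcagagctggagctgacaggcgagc
Cyp1a1, chr9:57697363-57697612, plus strand: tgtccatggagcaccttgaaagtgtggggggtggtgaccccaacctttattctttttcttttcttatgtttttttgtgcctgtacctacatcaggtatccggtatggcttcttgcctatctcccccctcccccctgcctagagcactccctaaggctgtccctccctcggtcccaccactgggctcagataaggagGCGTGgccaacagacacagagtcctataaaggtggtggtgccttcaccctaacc
Cyp1b1, chr17:79715062-79715311, minus strand: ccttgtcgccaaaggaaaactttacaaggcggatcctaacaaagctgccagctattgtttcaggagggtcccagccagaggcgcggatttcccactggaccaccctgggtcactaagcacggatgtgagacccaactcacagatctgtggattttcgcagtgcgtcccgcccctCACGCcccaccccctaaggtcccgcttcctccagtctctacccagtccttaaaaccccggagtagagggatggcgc
Ahrr, chr13:74292332-74292581, minus strand: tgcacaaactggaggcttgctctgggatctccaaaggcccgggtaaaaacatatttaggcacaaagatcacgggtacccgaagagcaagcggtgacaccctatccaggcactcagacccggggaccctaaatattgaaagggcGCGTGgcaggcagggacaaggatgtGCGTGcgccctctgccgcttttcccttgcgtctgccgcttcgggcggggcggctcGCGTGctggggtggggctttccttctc

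The core occurred once upstream of Tiparp, on the opposite strand, 170 to 166 bases before the start used. It occurred once upstream of Cyp1a1, 54 to 50 bases before the start used, and once upstream of Cyp1b1 on the opposite strand, 76 to 72 bases before the start. Ahrr held 3 copies, the farthest 107 to 103 bases before the start. The Ahrr copy at 27 to 23 bases was the only match among these genes to the longer form TNGCGTG, which contains GCGTG. The Arnt window held 1 core and the Cyp1a2 window held 0. The core was present on either strand in 28.2% of 32851 promoter windows of the same length, and TNGCGTG in 4.1%. A match is a description of letters, and the best known response elements of Cyp1a1 lie farther upstream than these windows reach.

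Tiparp encodes the mono-ADP-ribosyltransferase that restrains AHR. Its main probe set, 1452160_PM_at, read 8.27 in control 1, 8.70 in control 2, 8.87 in plumbagin 1 and 9.29 in plumbagin 2 (log2 values). Both plumbagin arrays lay above both controls, but plumbagin 1 exceeded control 2 by 0.17 alone, less than the 0.43 (control 2 minus control 1) between the controls. Within each replicate number the difference was nearly the same, 0.61 for the number 1 pair (plumbagin 1 minus control 1) and 0.58 for the number 2 pair. The arrays with number 2 were higher than those with number 1 in both groups, by 0.43 in the controls and 0.41 with plumbagin. The step between numbers was narrower than the step between treatments in both pairs.

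The fitted 95% interval of the Tiparp difference, given for its width and not as a test, ran from 0.0094 to 1.18. Tiparp's own SD within groups was 0.30, above its fitted SE of 0.22. Of the 8637 genes above background, 7 had a larger upward difference than Tiparp and 30 (0.347%) a difference above 0.5. The order control 1, control 2, plumbagin 1, plumbagin 2 from lowest to highest, as in Tiparp, was shared by 100 of those genes (1.16%). Because Tiparp was chosen with this contrast known, its rank and these shares are descriptions, and nothing is read from them. Among 1282 genes within 0.5 of Tiparp in mean level, the median difference was -0.11 for the number 1 pair, -0.0022 for the number 2 pair, and -0.03 for control 2 minus control 1. Without plumbagin 1 the Tiparp difference was 0.80, without plumbagin 2 it was 0.39, without control 1 it was 0.38 and without control 2 it was 0.81.

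The other Tiparp probe sets gave the same order of arrays. Probe set 1426721_PM_s_at read 8.04 and 8.47 in controls 1 and 2 and 8.58 and 8.98 in plumbagin 1 and 2, a difference of 0.52 ± 0.22 (SE). Probe set 1452161_PM_at read 7.11, 7.39, 7.57 and 8.01 in the same order, a difference of 0.54 ± 0.19. All 3 were designed on the same database sequence and read the same RNA samples, so their agreement is no replicate of the treatment.

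**Figure D2:**
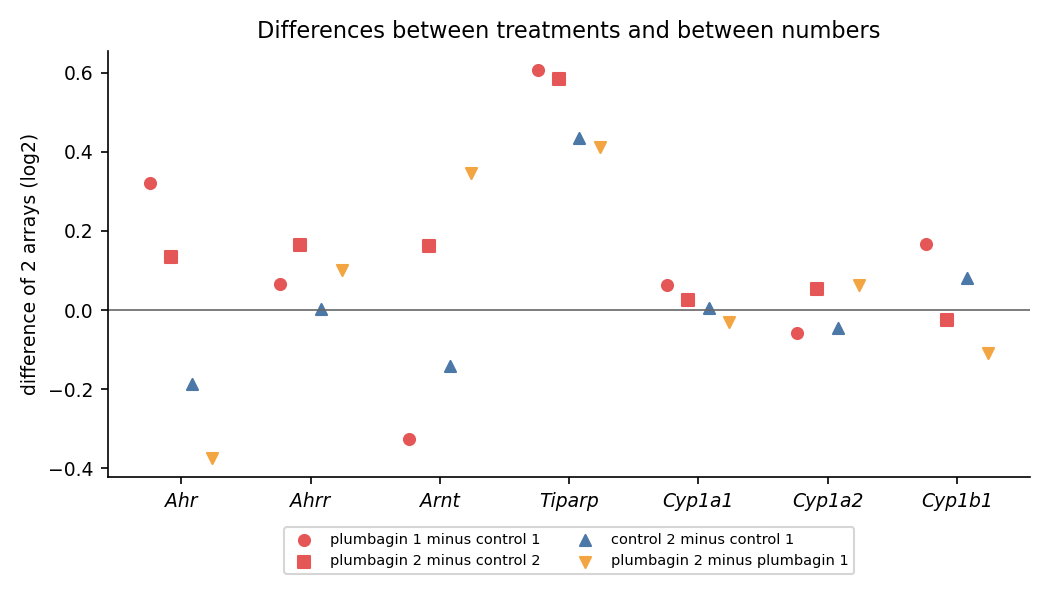
Difference between 2 arrays (log2, vertical axis) for the main probe set of each gene: plumbagin minus control within number 1 (red circles) and number 2 (red squares), and number 2 minus number 1 in the controls (blue) and with plumbagin (yellow). For Tiparp all 4 differences are above 0, at 0.61, 0.58, 0.43 and 0.41; for Arnt the treatment differences have opposite signs, -0.33 and 0.16.

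Ahr encodes the receptor itself. Its main probe set, 1422631_PM_at, read 6.58 in control 1, 6.39 in control 2, 6.90 in plumbagin 1 and 6.53 in plumbagin 2. Plumbagin 1 was the highest array, while plumbagin 2 lay between the controls, so the groups overlapped. The number 1 pair differed by 0.32 and the number 2 pair by 0.14. Without plumbagin 1 it was 0.04, and without plumbagin 2 it was 0.41. The second Ahr probe set, 1450695_PM_at, was below the background level with a mean of 4.15 and a difference of 0.10 ± 0.14. Among 2077 genes within 0.5 of Ahr in level the median difference in number 1 was -0.15, opposite in sign to that of Ahr.

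Arnt encodes the partner that AHR shares with the hypoxia-inducible factors. Its main probe set, 1419996_PM_s_at, read 7.46 in control 1, 7.32 in control 2, 7.14 in plumbagin 1 and 7.48 in plumbagin 2. The lowest and the highest value were both plumbagin arrays, so the groups overlapped completely. The difference was -0.33 in number 1, where genes of like brightness had a median of -0.18, and 0.16 in number 2. It was 0.09 without plumbagin 1 and -0.26 without plumbagin 2. Of the other 4 Arnt probe sets, 1437042_PM_at (-0.02 ± 0.12) and 1421721_PM_a_at (-0.07 ± 0.14) were above background with the same signs within each number, and 2 were below it, with differences of 0.02 and 0.04.

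**Figure D3:**
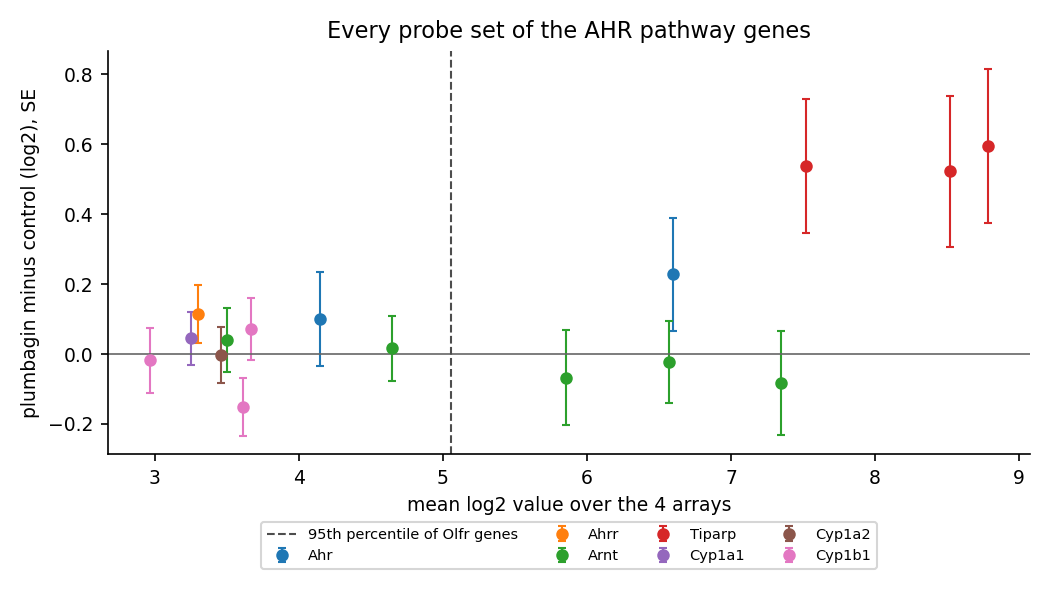
Difference between plumbagin and control (log2, vertical axis, bars are the limma SE, n = 2 per group) against the mean log2 value over the 4 arrays (horizontal axis) for all 16 probe sets of the 7 genes; the dashed line is the 95th percentile of the Olfr genes. The 3 Tiparp probe sets lie between 0.52 and 0.60, and all probe sets to the left of the dashed line lie between -0.15 and 0.11.

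Cyp1a1, the P450 that is the classic readout of AHR activity, was read by 1422217_PM_a_at at 3.23 in control 1, 3.23 in control 2, 3.29 in plumbagin 1 and 3.26 in plumbagin 2. Only 7 of the 41 Olfr genes had a lower mean. Both plumbagin arrays lay above both controls, yet the 4 values spanned 0.06. The gene's own SD within groups was 0.016, below the fitted error of 0.08. The difference of 0.04 ± 0.08 was smaller than that fitted error. It was 0.06 in the number 1 pair, 0.03 in the number 2 pair and 0.03 without plumbagin 1. Cyp1a2, the P450 that is abundant in liver, was read by 1450715_PM_at at 3.49, 3.44, 3.43 and 3.49 in the same order of arrays, with a difference of -0.0021 ± 0.08 and with 14 Olfr genes below it. The controls and the plumbagin arrays overlapped, and the difference was -0.06 in the number 1 pair, 0.05 in the number 2 pair and 0.03 without plumbagin 1.

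Cyp1b1, the P450 of the family that many tissues outside the liver express, was read by 3 probe sets, all at background. The main one, 1432081_PM_at, read 3.59 and 3.67 in controls 1 and 2 and 3.76 and 3.65 in plumbagin 1 and 2. Its difference was 0.07 ± 0.09, above 0 in number 1 (0.17) and below 0 in number 2 (-0.02), and it was 0.02 without plumbagin 1. Probe set 1416612_PM_at, at nearly the same level, had both plumbagin arrays (3.53 and 3.55) below both controls (3.74 and 3.64), a difference of -0.15 ± 0.08. The third, 1416613_PM_at, differed by -0.02 ± 0.09. The probe sets thus gave no common direction for Cyp1b1.

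Ahrr, the receptor's repressor, was read by 1420796_PM_at at 3.24 in both controls, 3.30 in plumbagin 1 and 3.41 in plumbagin 2. Both plumbagin arrays were higher and the difference was 0.11 ± 0.08, with 0.07 in the number 1 pair, 0.16 in the number 2 pair and 0.17 without plumbagin 1. However, 33 of the 41 Olfr genes read higher than Ahrr, so at this level a probe set does not show transcription of its gene. A level at background limits what the array could detect and does not show that a transcript was absent.

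Genes with the profile most like Tiparp were sought among 2842 named genes above background, by the root mean square distance between the 4 log2 values after each gene was centred on its own mean. The nearest were Zfp950 (distance 0.09), Far1, a fatty acyl-CoA reductase (0.10), Igip (0.13), Usp9x, an X-linked deubiquitinase (0.15), and Rbis (0.15). Zfp950 read 5.33, 5.64, 5.89 and 6.12 in controls 1 and 2 and plumbagin 1 and 2, the order seen for Tiparp. Rbis shared that order, and in Far1, Igip and Usp9x plumbagin 1 lay below control 2. The nearest profiles to Ahr were Pls3 (0.02), R3hcc1l (0.02), Efna5 (0.03), Phtf2 (0.03) and Ids (0.03), and those to Arnt were Ablim1 (0.03), Igsf11 (0.04), Epb41l5 (0.04), Cybc1 (0.04) and Arhgap1 (0.04). These are descriptions over 4 arrays, in which many genes share a profile.

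Other genes of the pathway were followed in 6 lists, of which 93 of 108 entries were measured and the rest are not analysed here (Ncoa1, Ncoa2 and Ncoa3 are in 2 lists). None of the lists held a gene that limma called in either direction (adjusted p = 1 for each gene named below). The enzymes of tryptophan metabolism, listed because some lead to ligands of AHR, were mostly at background: 2 of 12 measured members, Kyat1 and Haao, were above it. The list's median difference was 0.00012, with 6 members above and 6 below 0. By smallest p its first members were Aadat (0.25 ± 0.13, SE), an aminotransferase, Kynu, the kynureninase (0.20 ± 0.13), Tph1, a tryptophan hydroxylase (-0.17 ± 0.13), and Afmid, the kynurenine formamidase (-0.11 ± 0.09), all 4 below the background level. In 3 of the 12 members both plumbagin arrays lay above both controls, and in 1 below (10.2% and 15.2% of all genes).

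The chaperones, ubiquitin ligase parts and coactivators that work with AHR had 13 of 18 members measured, all 13 above background, with a median difference of 0.01. Hsp90aa1, the inducible cytosolic HSP90 that holds the receptor, differed by 0.32 ± 0.16, and Cul4b, the scaffold of a ubiquitin ligase that AHR joins, by 0.28 ± 0.19. For both, the number 1 pair gave nearly all of the difference (0.61 for Hsp90aa1 and 0.64 for Cul4b), and the number 2 pair gave 0.03 and -0.07. The acetyltransferase Crebbp differed by -0.31 ± 0.18 (-0.57 in number 1 and -0.04 in number 2) and Tbl3 by -0.26 ± 0.15. Genes within 0.5 of Arnt in mean level, a range that holds Crebbp and Tbl3, had a median of -0.18 in number 1. In 1 of the 13 both plumbagin arrays lay above both controls, and in 3 below (10.2% and 15.2% of all genes). Among genes above background, as these 13 are, the share with both above was 5.66%, and the share below was not counted.

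The bHLH-PAS relatives, which share the dimerization domains of AHR and ARNT, had all 16 members measured and 9 above background, with a median of 0.01. Epas1, which encodes HIF-2α, an ARNT partner, read 5.04 and 4.76 in controls 1 and 2 and 5.37 and 5.31 in plumbagin 1 and 2, a difference of 0.44 ± 0.12 that kept its sign in both numbers (0.34 and 0.54). Its control mean of 4.90 was below the background level. Hif1a, the bright HIF-1α gene, differed by 0.15 ± 0.12, the clock gene Arntl (Bmal1) by -0.27 ± 0.21 and the coactivator Ncoa3 by -0.16 ± 0.12. Among the 16, both plumbagin arrays lay above both controls in Epas1 alone and below them in Ncoa3 alone (10.2% and 15.2% of all genes).

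AHR targets beyond the P450 genes, Ahrr and Tiparp had 19 of 26 members measured and 11 above background. Their median difference was 0.02, with a range from -0.19 to 0.21, so none approached the 0.60 of Tiparp. Ahnak differed by 0.21 ± 0.10, the hormone gene Fgf21 by -0.19 ± 0.11, the quinone reductase gene Nqo1 by 0.18 ± 0.12 and the prostaglandin synthase gene Ptgs2 by 0.14 ± 0.09; of these 4 Ahnak alone was above background. In 4 members both plumbagin arrays lay above both controls and in 5 below, with a background of 10.2% and 15.2% of all genes. Some of these genes, such as Nqo1 and Vegfa, also answer to other stress pathways.

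The PARP family and the enzymes that remove ADP-ribose had all 20 members measured and 11 above background, with a median of -0.0090 and a range from -0.29 to 0.09. By smallest p the first members of this list were Parp16, the family member of the endoplasmic reticulum (-0.29 ± 0.11), and Parp8 (-0.17 ± 0.09). Next came Adprhl2, an ADP-ribose hydrolase (-0.26 ± 0.16), and Parp11 (-0.17 ± 0.13). Of these 4, Parp11 alone was above background. None of the 20 differed upward by more than 0.09. The plumbagin arrays both lay above the controls in 1 of the 20 and below them in 4, with 10.2% and 15.2% over all genes.

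The heme pathway and electron donors that P450 enzymes need had 13 of 15 members measured, all 13 above background, with a median of -0.08. Its first members were Alas1, the rate-limiting enzyme of heme synthesis (-0.21 ± 0.14), Alad (-0.25 ± 0.17), Ppox (-0.33 ± 0.23) and Uros (-0.19 ± 0.17). All 4 were lower by 0.40 or more in the number 1 pair and lay within 0.10 of 0 in the number 2 pair. Genes of like brightness were also lower in number 1. Those within 0.5 of Arnt (mean 7.35) had a median of -0.18 there and -0.0014 in number 2. Those within 0.5 of Ahr (mean 6.60) had -0.15 and -0.0039. Their median difference between the groups was -0.08 near Arnt and -0.07 near Ahr. The part of this shift in the list was not tested. Hmox1, heme oxygenase 1, had the highest difference of the list at 0.41 ± 0.56, with -0.07 in the number 1 pair and 0.89 in the number 2 pair. Of the 13, 0 had both plumbagin arrays above both controls and 1 had both below (10.2% and 15.2% of all genes). For genes above background alone the share with both above was 5.66%, and the share below was not counted.

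**Figure D4:**
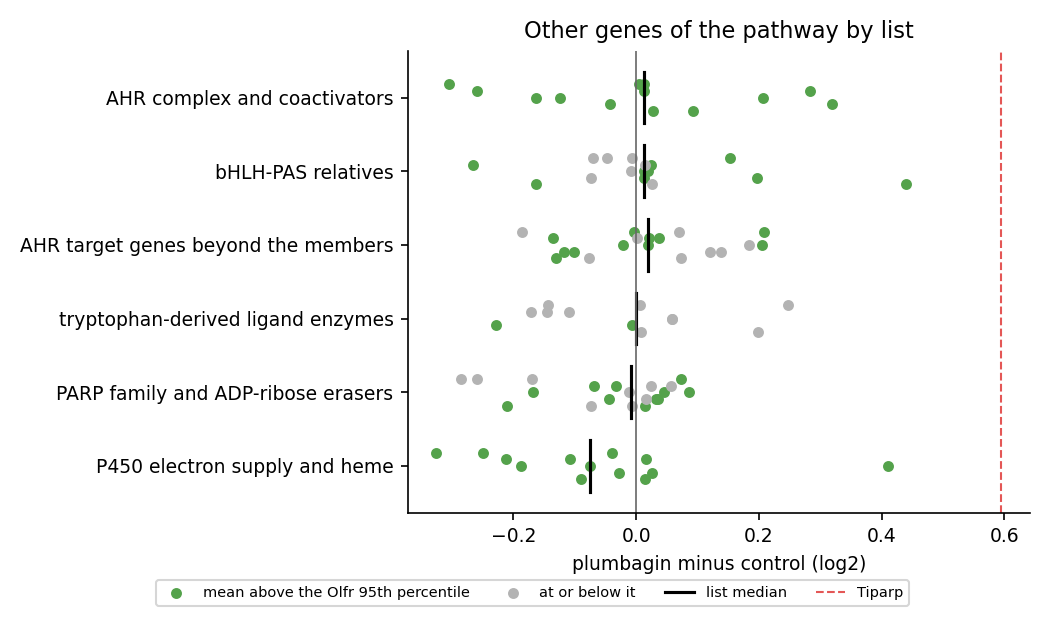
Difference between plumbagin and control (log2, horizontal axis) for each measured gene of the 6 lists, in green where the mean over the 4 arrays was above the Olfr 95th percentile and in grey where it was not; black bars are list medians and the red dashed line is Tiparp at 0.60. The list medians lie between -0.08 and 0.02, and no gene of the lists reaches the Tiparp line.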

How the data were processed

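Total RNA of 4 samples of B16F10 cells, 2 per group by title, was read on Affymetrix mouse genome arrays, 1 sample per array. The authors deposited 1 log2 value per probe set and array; the submitters' processing notes name Affymetrix Expression Console, RMA and Transcriptome Analysis Console, without versions. RMA makes array distributions alike, which hides a shift of most genes and compresses weak signals. Of 45141 probe sets, 28898 had 1 gene symbol in the platform annotation, which can be old; 551 with several and 15588 unnamed were not tested. Symbols were updated by Entrez number through a RefSeq table of GRCm38.p6. Differences were fitted with lmFit and eBayes of limma 3.58.1 (R 4.3.3), two-sided, no covariates, Benjamini-Hochberg adjustment over 17097 genes, threshold 0.05; the code was tested on simulated data. The number of arrays limits precision.

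The 7 genes and the lists were chosen with earlier results of these data known. Named genes were the 7, up to 4 genes of smallest p per list, the 5 nearest profiles of Tiparp, Ahr and Arnt among genes deviating by at least 0.25 on 1 array, with unnamed loci skipped; Hmox1, Kyat1, Haao, Vegfa and the 5 markers named lie outside this rule. Alternatives were other probe set summaries, filters on dim genes, normalizations, eBayes settings, a replicate block and leaving out each array.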

Additional observations from a re-analysis of the deposited data

How the results depend on the processing

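The counts of called genes stayed at 0 in both directions under all alternatives run, with 25 to 973 genes at an unadjusted p under 0.05. The Tiparp difference stayed above 0 in all 15 alternatives: from 0.55 to 0.65 under the other processing settings, and from 0.38 to 0.81 with 1 array left out. Much of this was fixed in advance. The filters, the eBayes settings and the replicate block cannot move the difference of any gene. Leaving out 1 array cannot bring a difference below 0 where both plumbagin arrays lie above both controls, as in Tiparp. The sign count is therefore no measure of how firm the difference is. Ahr stayed above 0 in all 14 (0.04 to 0.41 with 1 array left out), while Arnt changed sign in 3 of 17, without plumbagin 1 (0.09) and in its 2 dim probe sets. Among the genes at background, the difference of Cyp1b1 turned to -0.03 with its probe sets averaged and was below 0 in its 2 other probe sets, that of Cyp1a2 turned above 0 when control 1 (0.02) or plumbagin 1 (0.03) was left out, and that of Cyp1a1 went to 0.03 with arrays centred on their medians. The filters on dim genes removed Ahrr and the 3 P450 genes, which then had no value.

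Replicate numbers are shared by the groups, but the labels do not say what a number marks. Deviations from the group means correlated between control 1 and plumbagin 1 (r = 0.54 over 17097 genes), which with 2 pairs does not establish a pairing. With the replicate number as a block, 0 genes were called higher and 0 lower, 434 had an unadjusted p under 0.05, and the Tiparp difference kept its value of 0.60, with an SE of 0.08 in place of 0.22. The 2 Tiparp pairs gave nearly equal differences (0.61 and 0.58), so this SE comes mostly from the value fitted over all genes. With 2 pairs it does not show that the difference is better measured. Signal over background limits the P450 genes and Ahrr: changes too small to lift them above the Olfr level could not be seen.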
